A study of Homo sapiens with 16 samples.

Results

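EZH2 was mapped on the DNA of THLE-2 cells, an immortalised liver epithelial line that is not derived from a tumour, by chromatin immunoprecipitation followed by sequencing (ChIP-seq). The regions described are all EZH2 peaks on chromosomes 1 to 22 and X, 2081 in replicate 1 and 3637 in replicate 2. These 5718 peaks stand among 172991 peaks in the 8 peak lists of the series, which also cover JARID2, a partner of EZH2, in both THLE-2 and HepG2 liver carcinoma cells, and trimethylated H3K27 (H3K27me3) in THLE-2. Each EZH2 library was called against its own input library of the same cell line. No genotype, drug or time point is given, and the series calls both replicates biological. Cells were fixed in 1% formaldehyde for 10 minutes, and chromatin was sheared to 200 to 500 bp. All cells belong to 1 line, so spread between lines or donors was not measured. A peak is an average over the cells of a culture and does not show whether all cells or a part of them carried EZH2 there.

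EZH2 is the catalytic subunit of Polycomb repressive complex 2, which places methyl groups on lysine 27 of histone H3 at genes held silent. In vertebrates the complex is found mostly at CpG-rich promoters of genes that other cell types use, and the Polycomb repressive complex 1 proteins of the CBX and PCGF families read or reinforce the silent state. Hepatocyte genes such as those of plasma proteins have mostly CpG-poor promoters, while housekeeping genes have CpG-rich promoters that are active in nearly all cells.

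Promoters of 5 genes with EZH2 in both replicates are shown first, because CG content is the promoter feature measured below. Each is the best ranked of its class, by the worse of its ranks of fold enrichment in both lists, among genes whose promoter both lists cover. Fold enrichment and score are per-peak values of the authors' peak caller. Each sequence is the RefSeq promoter (GRCh38.p14), 250 bases before to 50 after a transcription start, read 5′ to 3′ on the strand of the gene, with every CG in capitals. PAX7, a homeobox factor of muscle stem cells, lies at chr1:18630596-18630895 (plus strand), and IHH, a hedgehog ligand, at chr2:219060872-219061171 (minus strand). KCNH2, the potassium channel of cardiac repolarisation, lies at chr7:150978272-150978571 (minus strand), and COL15A1, a basement membrane collagen, at chr9:98943657-98943956 (plus strand). GATA6, a factor of endoderm and liver development, lies at chr18:22169339-22169638 (plus strand).
PAX7: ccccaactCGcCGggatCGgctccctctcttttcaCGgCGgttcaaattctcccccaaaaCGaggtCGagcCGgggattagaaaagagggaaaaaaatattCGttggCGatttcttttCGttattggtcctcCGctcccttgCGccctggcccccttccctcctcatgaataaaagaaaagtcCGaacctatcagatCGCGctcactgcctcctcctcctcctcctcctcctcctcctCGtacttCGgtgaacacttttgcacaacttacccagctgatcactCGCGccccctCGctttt
IHH: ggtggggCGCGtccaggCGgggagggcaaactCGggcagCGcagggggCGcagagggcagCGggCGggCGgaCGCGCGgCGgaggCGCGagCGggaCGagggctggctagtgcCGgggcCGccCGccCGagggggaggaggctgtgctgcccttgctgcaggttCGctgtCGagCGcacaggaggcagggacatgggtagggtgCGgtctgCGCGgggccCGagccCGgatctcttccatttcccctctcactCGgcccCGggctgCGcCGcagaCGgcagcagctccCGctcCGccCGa
KCNH2: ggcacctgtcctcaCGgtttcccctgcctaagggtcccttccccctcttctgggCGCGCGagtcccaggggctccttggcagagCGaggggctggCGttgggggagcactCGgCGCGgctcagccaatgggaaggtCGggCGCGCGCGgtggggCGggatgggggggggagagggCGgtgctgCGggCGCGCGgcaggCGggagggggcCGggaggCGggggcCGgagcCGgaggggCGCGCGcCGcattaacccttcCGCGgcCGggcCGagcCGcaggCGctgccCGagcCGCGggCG
COL15A1: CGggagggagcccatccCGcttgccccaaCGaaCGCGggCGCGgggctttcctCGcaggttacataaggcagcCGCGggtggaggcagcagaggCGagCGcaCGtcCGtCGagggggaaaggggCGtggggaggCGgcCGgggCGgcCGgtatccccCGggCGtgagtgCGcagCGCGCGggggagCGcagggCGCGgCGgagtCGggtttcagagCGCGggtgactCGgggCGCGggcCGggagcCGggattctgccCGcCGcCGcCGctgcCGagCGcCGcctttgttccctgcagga
GATA6: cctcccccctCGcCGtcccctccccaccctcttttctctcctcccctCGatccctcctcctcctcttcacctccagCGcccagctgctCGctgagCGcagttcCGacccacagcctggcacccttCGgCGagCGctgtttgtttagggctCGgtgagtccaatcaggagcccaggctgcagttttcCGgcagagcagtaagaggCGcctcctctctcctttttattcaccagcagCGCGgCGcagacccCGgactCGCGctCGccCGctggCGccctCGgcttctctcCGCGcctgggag
These windows held 21, 37, 39, 45 and 25 CG in the order given. The peaks over them were 19047 and 13866 bp wide at PAX7, 6695 and 6923 bp at IHH, 4798 and 7570 bp at KCNH2, 3617 and 3115 bp at COL15A1, and 6884 and 5805 bp at GATA6, in replicates 1 and 2. PAX7 had the widest peaks of the 5 and the fewest CG.

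For contrast, the promoters of 2 genes are shown from classes in which no gene had a peak in both lists, the first by name with a listed promoter. AFP, the fetal plasma protein of liver, lies at chr4:73435971-73436270 (plus strand), and AURKB, a mitotic kinase, at chr17:8210176-8210475 (minus strand).
AFP: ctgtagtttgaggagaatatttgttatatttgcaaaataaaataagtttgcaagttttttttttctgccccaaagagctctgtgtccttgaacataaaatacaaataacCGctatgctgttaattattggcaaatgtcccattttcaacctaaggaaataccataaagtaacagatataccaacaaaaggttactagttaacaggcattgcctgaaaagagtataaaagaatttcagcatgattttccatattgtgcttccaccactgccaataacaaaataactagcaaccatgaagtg
AURKB: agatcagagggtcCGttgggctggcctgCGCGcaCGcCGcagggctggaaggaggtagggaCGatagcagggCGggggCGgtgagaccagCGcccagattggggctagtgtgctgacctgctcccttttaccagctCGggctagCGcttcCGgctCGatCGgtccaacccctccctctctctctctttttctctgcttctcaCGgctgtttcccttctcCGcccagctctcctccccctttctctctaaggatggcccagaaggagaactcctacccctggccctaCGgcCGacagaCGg
The AFP window held 1 CG and the AURKB window 19.

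Over all coding genes, promoters under EZH2 were richer in CG than the rest, and CG-poor promoters were nearly free of peaks. Both lists overlapped 864 of 22132 listed coding promoters (3.90%). The median number of CG was 28 (quartiles 19 and 37) in these, 26 in the 436 covered in 1 list, and 20 (quartiles 6 and 31) in the 20832 covered in neither. Median GC content was 69.3%, 67.7% and 62.0% in the same order. Of promoters with at most 5 CG, 21 of 4727 (0.444%, Wilson 95% interval 0.291 to 0.678) were covered in both lists. The share was 2.45% (56 of 2283) with 6 to 10 CG, between 4.26% and 4.77% in the 4 ranges from 11 to 30 CG, and 6.17% (5.58 to 6.81) with 31 or more. The 4-base motif CGCG, which reads the same on both strands, was in 85.5% of covered promoters and 62.3% of all promoters. Within ranges of CG number it was in 26.8% of covered and 18.4% of all promoters with 6 to 10 CG, in 60.8% and 48.2% with 11 to 15, and in 79.6% and 75.3% with 16 to 20. It was in 92.0% and 89.0% with 21 to 25 CG, and in 100% and 95.9% with 26 to 30. With 31 or more, a range that holds 364 of the 864 covered promoters, the shares were 99.7% and 99.6%. With at most 5 CG it was in 0% of the 21 covered promoters and 1.73% of all. The motif GAGAG, searched on both strands, was in 68.9% of covered and 62.6% of all promoters. Wilson intervals here and below cover counting error only, and promoters that share a peak are not independent.

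CG number alone did not sort the classes. Among promoters with more than 20 CG, 105 of 247 of transcription factor classes, HOX included (42.5%), were under EZH2 in both lists. The count was 63 of 181 (34.8%) for neuronal classes, 32 of 124 (25.8%) for signalling classes, 12 of 61 (19.7%) for adhesion and matrix classes and 605 of 11252 (5.38%) over all coding genes. Of 178 such promoters of cell cycle, ribosomal, respiratory chain and proteasome genes, 0 were covered, with an upper Wilson bound of 2.11%. Plasma protein promoters had a median of 4 CG, and 4 of 69 held more than 20.

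**Figure D1:**
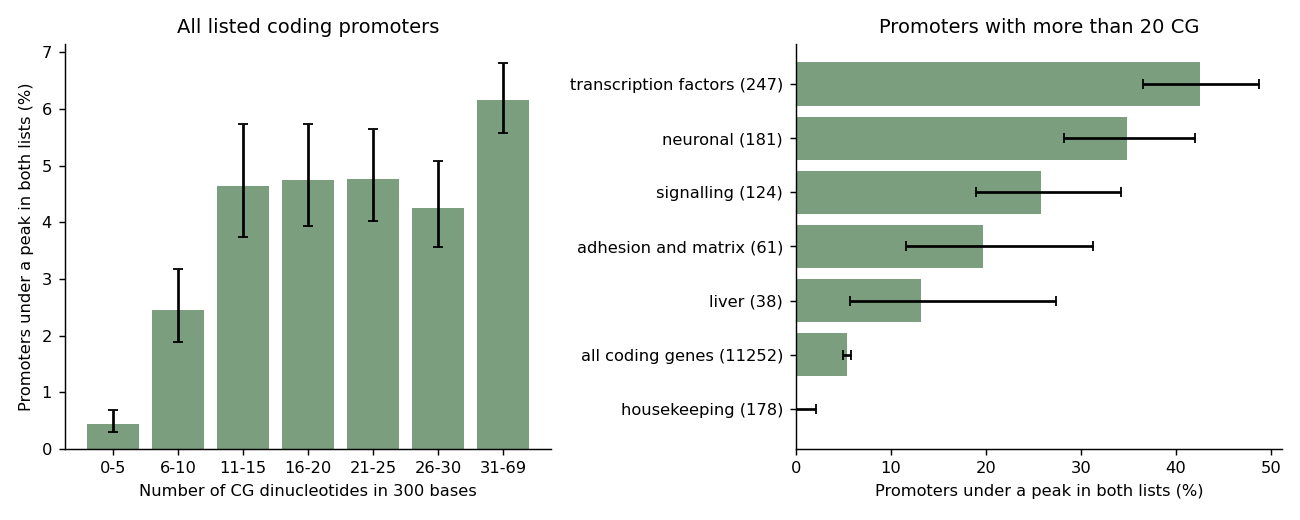
Share of listed coding promoters that EZH2 peaks of both lists overlap. Left, by the number of CG in the 300-base window (bars, with Wilson 95% intervals); right, for promoters with more than 20 CG in groups of gene classes, with the number of promoters in brackets. The share is lowest with at most 5 CG (0.444%), and among CG-rich promoters it runs from 42.5% for transcription factors to 0 of 178 for housekeeping genes.

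The replicates agreed on wide peaks and differed on narrow ones. Of replicate 1 peaks, 1314 of 2081 (63.1%, 95% interval 61.0 to 65.2) overlapped a replicate 2 peak by at least 1 bp, and 1345 of 3637 replicate 2 peaks (37.0%, 35.4 to 38.6) overlapped a replicate 1 peak. Peaks of 2 kb and over overlapped in 1195 of 1414 cases (84.5%) in replicate 1 and in 1192 of 1495 (79.7%) in replicate 2. Those of 1 to 2 kb did so in 33.0% and 31.3%. Peaks under 1 kb overlapped in 24 of 379 (6.33%) and 45 of 1797 (2.50%). Replicate 2 thus held many more narrow peaks than replicate 1 and a similar number of wide ones. By sequence length, 5.46 Mb was under peaks of both lists, 74.1% of the 7.37 Mb of replicate 1 and 64.6% of the 8.46 Mb of replicate 2.

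**Figure D2:**
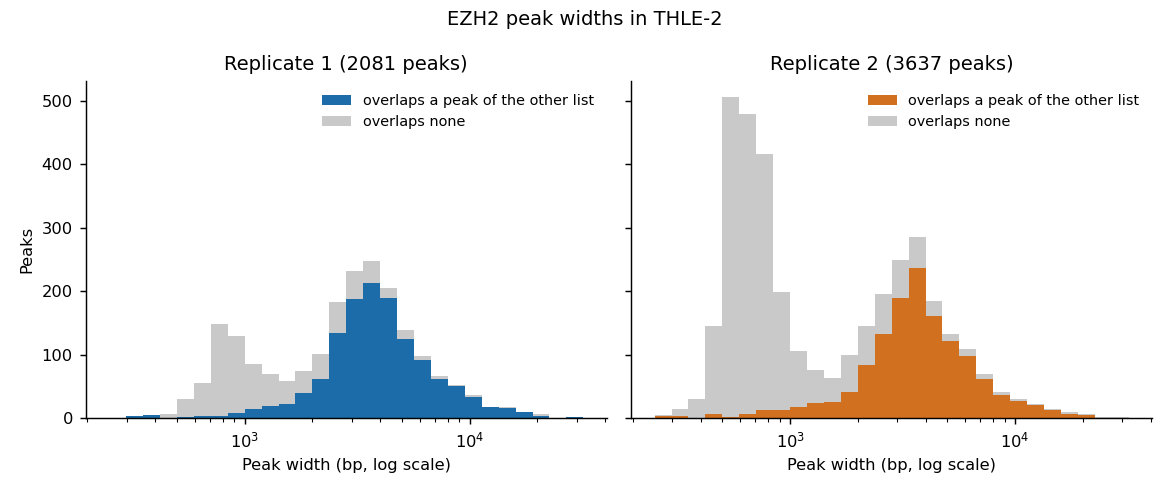
Widths of EZH2 peaks (bp, log scale) in replicate 1 (left) and replicate 2 (right); the coloured part of each bar counts peaks that overlap a peak of the other list, the grey part those that overlap none. Peaks under 1 kb are nearly all grey, while 84.5% and 79.7% of peaks of 2 kb and over are coloured.

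The IP libraries were of similar depth, with 29593777 and 32444241 filtered tags, while the inputs differed more, with 20297336 and 28138868. Whether input depth bears on the number of narrow peaks was not tested. Peaks held 3.08% and 3.23% of the IP tags. Overlap followed the caller's score (10 times the negative log10 of its p): over quintiles of score in replicate 1, from low to high, it was 14.9%, 37.7%, 75.2%, 89.7% and 98.3%. In replicate 2 the quintiles gave 2.06%, 5.91%, 18.0%, 65.7% and 93.1%. The caller's fold enrichment did not order the peaks this way, with 67.4% in the lowest and 66.1% in the highest quintile of replicate 1, and 58.8% and 33.5% in replicate 2.

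Where a peak of 1 list overlapped exactly 1 peak of the other, the shape was closely repeated. Over these 1216 pairs, Spearman's rho between replicates was 0.912 for width and 0.913 for tags per kb of peak. It was 0.521 for fold enrichment. These are correlations across peaks, which are not replicates, and wide peaks are also those with more tags. Replicate 1 peaks were 1.03 times as wide at the median, with 80% of pairs between 0.844 and 1.29 times. Summits lay a median of 130 bp apart, and 994 pairs (81.7%) had summits within 500 bp.

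**Figure D3:**
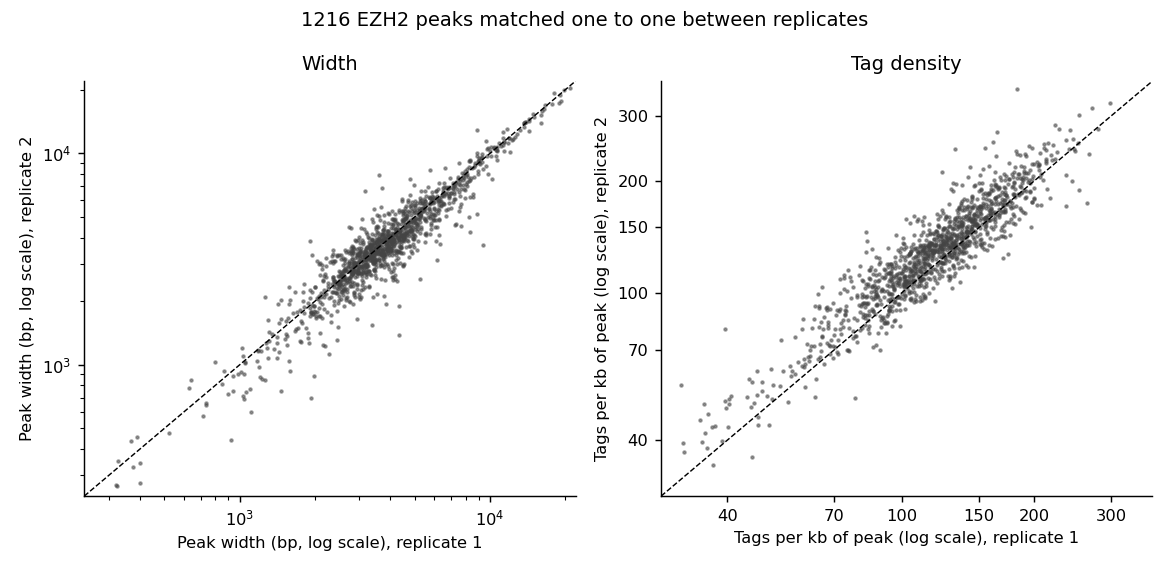
The 1216 EZH2 peaks that match one to one between replicates, by width (left, bp, log axes) and by IP tags per kb of peak (right, log axes); each point is a pair and the dashed line marks equal values. Widths lie along the line and tag densities somewhat above it, with a median ratio of replicate 1 to replicate 2 of 1.03 for width and 0.922 for density. Tag counts are not scaled to library depth, and replicate 2 had more IP tags.

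Narrow peaks were sparse in tags and lay mostly away from genes' ends. Those under 1 kb had medians of 30 and 25 tags and a density of 38.0 and 39.8 tags per kb, against 118 and 128 tags per kb in peaks of 2 kb and over. They lay within 2 kb of a coding gene end in 5.80% and 4.23% of cases, against 73.6% and 72.9% of the wide peaks. H3K27me3 peaks of THLE-2 replicate 2 overlapped 30.3% and 24.1% of the narrow and 75.7% and 75.9% of the wide EZH2 peaks. The H3K27me3 list of replicate 1 (46173 peaks, against 90461 in replicate 2) goes the other way, at 22.2% and 17.0% of the narrow and 3.96% and 4.41% of the wide peaks, so the overlap with the mark rests on which of its libraries is used. Narrow peaks were also spread unevenly: chromosomes 5 and 6 held 12.7% and 11.9% of those of replicate 1 and 11.5% and 10.4% of those of replicate 2. The same chromosomes held 5.73% and 5.23% of the wide peaks of replicate 1 and 5.82% and 5.48% of those of replicate 2. Chromosome 19, which is rich in genes, held 2 and 9 narrow peaks beside 57 and 66 wide ones.

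A small set of narrow peaks was found in both lists. There were 21 one-to-one pairs with both widths under 1 kb, and 2 of them lay at coding gene ends, SYN2 (a synapsin of synaptic vesicles, which also has a wider peak) and CDKN1C (a cell cycle inhibitor of the imprinted 11p15 region). At CDKN1C the peaks spanned 399 and 343 bp, at chr11:2884317-2884715 in replicate 1. They held 26 and 23 tags, near the fewest of any peak in each list (19 and 16). At a lower coordinate of the same region, a 374 bp and a 330 bp peak (chr11:2869862-2870235 in replicate 1) overlapped the end of the long non-coding RNA gene KCNQ1DN, with fold enrichments of 19.7 and 21.5 in the authors' lists.

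EZH2 lay at genes of many functional classes beyond HOX, and at more genes that belong to none of the classes used here. A gene is counted when a peak lies within 2 kb of either end of its RefSeq annotation, since strand is listed for only some genes. A peak at a start inside the annotation, away from both ends, is not counted by this rule. Replicate 1 had a peak at 1183 of 19974 coding genes (5.92%), replicate 2 at 1307 (6.54%), and both at 975 (4.88%). These 975 genes rest on 946 and 967 distinct peaks, since neighbouring genes share some. At 968 of them the peaks of both replicates overlap each other. Of 694 of these genes with a listed start, 610 (87.9%) had a peak within 2 kb of a start in both lists. Over 41 classes, 391 of the 975 genes belonged to at least 1 class (40.1%), while class members are 14.3% of coding genes. The other 584 belonged to none.

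**Figure D4:**
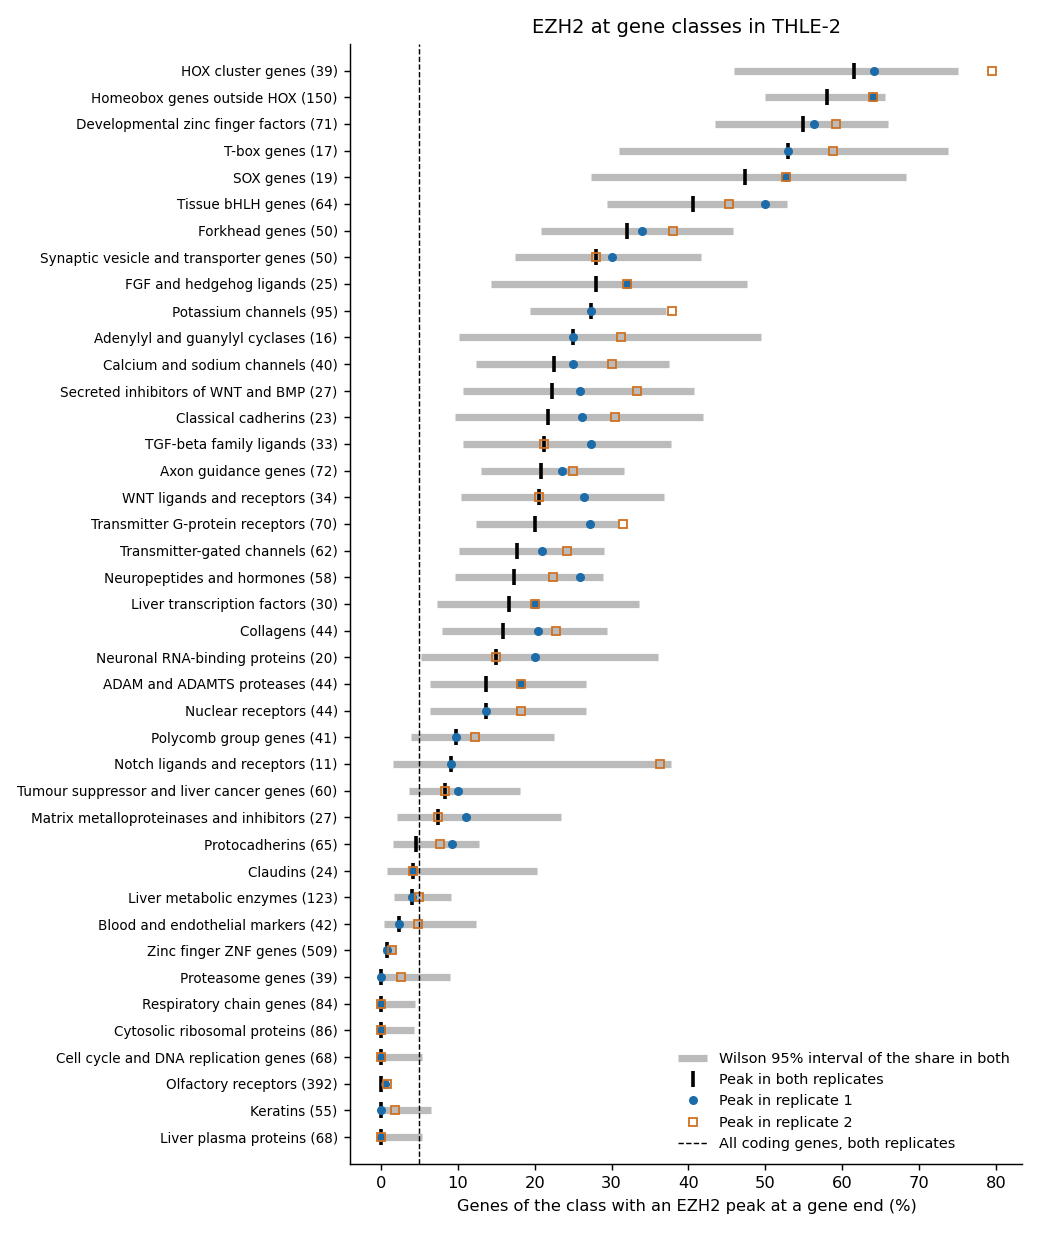
Share of each gene class (%) whose members' ends lie within 2 kb of a peak, in replicate 1 (filled circles), replicate 2 (open squares) and both (black ticks, with Wilson 95% intervals as grey bars); class sizes are in brackets and the dashed line is the share of all coding genes in both lists (4.88%). The 7 highest classes are developmental transcription factors, and 7 classes stand at 0 in both.

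Transcription factors stood highest. Outside HOX, 192 of 415 factors in 7 classes (46.3%, 95% interval 41.5 to 51.1) had a peak in both replicates. Homeobox genes outside HOX, which specify organs, neurons and segments, had 87 of 150 (58.0%), close to the 24 of 39 HOX genes (61.5%). Named genes are the best ranked of their class by fold enrichment in both lists. Widths given for a gene sum all peaks counted at its ends, which can include a peak at a neighbouring gene. ONECUT3, a cut-homeodomain factor, carried 11679 and 13073 bp of peak with 191 and 188 tags per kb. NKX2-4, a factor related to the thyroid and forebrain regulator NKX2-1, had a shorter and denser peak of 3468 and 3370 bp with 226 and 240 tags per kb.

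Developmental zinc finger factors had a peak in both lists at 39 of 71 genes (54.9%). PRDM12, needed for pain-sensing neurons, had 11404 and 11356 bp and the densest peaks of the genes named in its class, with 299 and 325 tags per kb. SP9, a factor of limb and striatum, had 19849 and 19838 bp, and ZIC5, of the neural plate, 5872 and 6059 bp. OVOL1, an epithelial factor, had 7693 and 4547 bp, so its width differed between lists. T-box genes had 9 of 17 (52.9%) and SOX genes 9 of 19 (47.4%). TBX2, a repressor of heart and limb, had 19025 and 11926 bp. TBXT (brachyury, of early mesoderm) had 5488 and 5478 bp, and SOX2, of stem cells and neural progenitors, 5906 and 5851 bp.

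Tissue-specific bHLH genes, among them the proneural and muscle-determining factors, had 26 of 64 (40.6%). OLIG2, of oligodendrocytes and motor neurons, carried 17730 and 17026 bp, and NEUROD2, a neuronal differentiation factor, 14261 and 14514 bp. TAL1, the blood stem cell factor, carried 5463 and 5490 bp. Forkhead genes had 16 of 50 (32.0%): FOXD3, of neural crest, had 15711 and 11515 bp. Nuclear receptors, which respond to steroids and other ligands, were lower at 6 of 44 (13.6%). Their share was 21.1% with gene starts only (over genes with a listed start) and 20.5% with peaks anywhere over the gene. ESR1, ESRRB and NR5A2 are not among the 6 but had peaks of both lists over a listed start. Among the 6, NR5A1, a factor of adrenal and gonad, had a peak of 8341 bp in replicate 1 and 4234 bp in replicate 2.

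Signalling genes had a peak in both lists at 47 of 218 over 7 classes (21.6%, 16.6 to 27.5), a share close to that of neuronal genes. FGF and hedgehog ligands had 7 of 25 (28.0%). IHH, which regulates cartilage growth, had the peaks given beside its promoter, and FGF8, a ligand of limb and brain organisers, had 8589 and 6228 bp. FGF9 had 9047 and 8984 bp at a density of 98.9 and 104 tags per kb. TGF-beta family ligands had 7 of 33 (21.2%), with INHBB, an activin subunit, at 5884 and 6003 bp and BMP7, of kidney and skeleton, at 5918 and 5938 bp. WNT ligands and receptors had 7 of 34 (20.6%), with WNT3A at 7974 and 6718 bp. WNT6 had a summed 10597 and 9170 bp. These sums include the peak of 5025 and 4365 bp at its neighbour WNT10A, which is itself among the 7. No frizzled receptor was among the 7, which were WNT1, WNT3A, WNT6, WNT7A, WNT10A, WNT11 and the receptor kinase ROR2.

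Secreted proteins that block these ligands were also under EZH2, at 6 of 27 (22.2%). NOTUM, an enzyme that inactivates WNT proteins, had 7128 and 5863 bp. CHRD (chordin, a BMP antagonist) had 3972 and 3420 bp, and SFRP2, a WNT-binding protein, 6107 and 6638 bp. NOG (noggin, which also binds BMPs) differed between lists, with 3170 and 6605 bp. Axon guidance genes had 15 of 72 (20.8%), and 11.1% with a score of at least 100. The ephrin receptors EPHB3 and EPHA7 had 3931 and 3900 bp and 4837 and 4368 bp. Adenylyl and guanylyl cyclases had 4 of 16 (25%), all adenylyl cyclases: ADCY1, ADCY2, ADCY5 and ADCY8. Notch ligands and receptors had 1 of 11, DLK1 (a non-canonical ligand), with 2777 and 3559 bp. Replicate 2 alone also had DLL3, DLL4 and NOTCH3, which makes 4 of 11 (36.4%) in that list, and with a score of at least 100 or gene starts only there was none in both.

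Genes of neurons had a peak in both lists at 87 of 395 over 7 classes (22.03%, 18.2 to 26.4). Synaptic vesicle and transporter genes had 14 of 50 (28.0%). They included CHAT, which makes acetylcholine, with 10543 and 9693 bp, and SLC6A5, the neuronal glycine transporter, with 6513 and 10484 bp. The GABA-making enzymes GAD1 and GAD2 were both in the set. Potassium channels had 26 of 95 (27.4%): KCNJ4, an inward rectifier, had 4946 and 4879 bp. Calcium and sodium channels had 9 of 40 (22.5%), and all 9 were calcium channel subunits, such as CACNA1G (6168 and 6106 bp) and CACNG4 (4779 and 5661 bp).

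G-protein-coupled receptors of transmitters had 14 of 70 (20%), transmitter-gated channels 11 of 62 (17.7%) and neuropeptides and hormones 10 of 58 (17.2%). The serotonin receptor HTR2C on the X chromosome had 4841 and 4260 bp, at 63.4 tags per kb in each replicate. GRIK3, a kainate receptor subunit, had 7202 and 6102 bp and GRIN2C, an NMDA receptor subunit, 4392 and 4068 bp. GAL (galanin) had 4401 and 3598 bp and TRH (thyrotropin-releasing hormone) 4420 and 3388 bp. Among 20 neuronal RNA-binding proteins, 3 had peaks at a gene end in both lists. Of the 59 listed promoters of this class, 6 were under peaks of both lists, and these belong to other members. Of the 3 counted, CELF4, a splicing factor, had 4648 and 5097 bp. MSI1 (musashi, of neural stem cells) had 4929 and 3953 bp, and ELAVL3 4556 and 3843 bp. The ELAVL3 peak is also the one counted for its neighbour ZNF653.

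Adhesion and matrix genes had fewer, with 24 of 227 over 6 classes (10.6%, 7.21 to 15.2). The CDH cadherins, labelled classical cadherins in the figures, had 5 of 23 (21.7%): CDH6, CDH11, CDH20, CDH22 and CDH23. The class is not limited to classical cadherins, since CDH23 is not one. CDH11, a mesenchymal cadherin, had 4512 and 4876 bp, and CDH22 had 11853 bp in replicate 1 and 4077 bp in replicate 2. Collagens had 7 of 44 (15.9%), among them COL2A1 of cartilage with 5737 and 5773 bp and COL9A3, also of cartilage, with 3308 and 3136 bp. ADAM and ADAMTS proteases had 6 of 44 (13.6%), with ADAMTS19 at 3269 and 3192 bp. With a score of at least 100 the share was 2.27%, below that of all coding genes. Protocadherins had 3 of 65 (4.62%), PCDH17, PCDH19 and PCDH20, none of which belongs to the clustered families. Counting peaks anywhere over the gene raised the share to 13.8%. Matrix metalloproteinases had 2 of 27 (MMP23B and MMP25) and claudins 1 of 24, CLDN3 of tight junctions (3395 and 3041 bp). CLDN10, which is not counted by gene ends, had peaks of both lists over a listed start. Of 27 listed claudin promoters, 2 were under peaks of both lists.

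Of the liver classes, only the transcription factors had an interval above the 4.88% of all coding genes. None of 68 plasma protein genes, such as those of albumin, apolipoproteins and clotting factors, had a peak in either replicate. The Wilson interval allows up to 5.35%, which includes the share of all coding genes. Of 123 enzymes and transporters of liver metabolism, 5 had one in both lists (4.07%), near the share of all coding genes. Of these, 3 were CYP26A1, CYP26B1 and CYP26C1, which degrade retinoic acid, and the others CYP27C1, a retinoid desaturase, and SULT4A1, a brain sulfotransferase. CYP26B1 had 9053 and 9253 bp with 199 and 206 tags per kb. CYP26A1 (5171 and 5146 bp) and its neighbour CYP26C1 (13107 and 5146 bp) were counted from the same replicate 2 peak.

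Liver transcription factors had a peak in both lists at 5 of 30 genes (16.7%, 7.34 to 33.6), below the 46.3% of factors outside HOX. FOXA2, GATA6, ONECUT1 and ONECUT2 are also counted in the forkhead, zinc finger and homeobox classes. FOXA2, a pioneer factor of endoderm, had 10762 and 11367 bp and GATA6 the peaks given beside its promoter. ONECUT1 (HNF6, of bile duct and hepatocyte development) had 9263 and 9149 bp, and ONECUT2 9602 and 8751 bp. CEBPA, a driver of hepatocyte differentiation, had 5037 and 5938 bp with 186 and 169 tags per kb. The remaining members included HNF4A, NR1H4 and PPARA, at which neither list held a peak. PROX1 had a peak of 6513 bp in replicate 1 only and FOXA3 one of 2254 bp in replicate 2 only. The label of THLE-2 as liver epithelium cannot be checked by expression in these data.

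Of 60 tumour suppressor and liver cancer genes, 5 had a peak in both lists (8.33%, 3.61 to 18.1), an interval that includes the 4.88% of all coding genes. With a score of at least 100 the share was 3.33%. The 5 genes were CDKN1C, FGF19, IGF2, SFRP1 and TP73. IGF2, a fetal growth factor, had 5252 and 5133 bp, FGF19, which represses bile acid synthesis, 4073 and 5345 bp, and TP73, a p53 relative, 4165 and 3782 bp. GPC3, a cell-surface proteoglycan often raised in liver cancer, had a peak of 2740 bp at 48.2 tags per kb in replicate 1 alone.

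Polycomb genes were themselves partly under EZH2, at 4 of 41 (9.76%, 3.86 to 22.5), a share that was 2.70% with gene starts only. No gene of the EZH2 complex was among them. CBX2 and CBX8, which encode subunits of Polycomb repressive complex 1 and are neighbours on chromosome 17, share a peak of 4768 and 4183 bp with 171 and 192 tags per kb. BMI1, of the same complex, had a peak of 2071 and 1856 bp over a listed start, with summits 197 and 274 bp downstream of it. The neighbour COMMD3 is counted from the same peak, which lies beyond its annotated end and covers no listed start of another coding gene.

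Blood and endothelial markers had 1 of 42 by gene ends, TAL1, which is also a bHLH gene. Of 28 listed promoters of this class, however, 4 were under peaks of both lists (14.3%), against 3.90% of all coding promoters. TAL1 has 2 listed starts, so other members are among those covered. ZNF genes, a large family with many recent copies, had 4 of 509 (0.786%): ZNF423, ZNF521, ZNF536 and ZNF653. ZNF423 and ZNF521, a pair of related factors of progenitor cells, had 8115 and 7324 bp and 4542 and 4159 bp. Olfactory receptors had 0 of 392 in both lists, with 2 genes in replicate 1 and 3 in replicate 2. Keratins had 0 of 55, with 1 in replicate 2. Cell cycle genes (68), cytosolic ribosomal proteins (86) and respiratory chain genes (84) had none in either list, and proteasome genes (39) had 1 in replicate 2, PSMA1.

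Peaks were wider at transcription factors than at signalling, neuronal or adhesion and matrix genes in both replicates. At the 975 genes called in both lists, the summed width of the peaks at a gene had a median of 4148 bp (quartiles 3183 and 6172) in replicate 1 and 4005 bp (3139 and 6012) in replicate 2. Factors outside HOX had medians of 7737 and 7514 bp, signalling genes 4597 and 4640 bp, neuronal genes 4148 and 3980 bp, and adhesion and matrix genes 3305 and 3126 bp. Genes of no class had 3587 and 3559 bp. Of 105 genes with 10 kb or more of peak in replicate 1, 65 were factors outside HOX and 14 HOX genes. In replicate 2 it was 65 and 11 of 95.

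Within the transcription factors, homeobox genes outside HOX had 9263 and 9227 bp, T-box genes 8135 and 8936 bp, forkhead genes 7721 and 6873 bp, zinc finger factors 6884 and 6322 bp, SOX genes 5926 and 5162 bp and bHLH genes 5757 and 5491 bp. The quartiles of these classes overlap, so their order is a description. HOX genes had 11606 and 9235 bp, which is wider than the other homeobox genes in replicate 1 and about equal in replicate 2. Of the 24 HOX genes, 11 and 13 sum several peaks. By the strongest single peak at a gene, HOX genes had 7233 and 6856 bp and the other homeobox genes 7940 and 7186 bp. Among neuronal classes, the summed width was largest at synaptic vesicle and transporter genes, at 6152 and 6230 bp. Potassium channels had 3982 and 3987 bp and neuropeptides 3573 and 3419 bp. By the strongest single peak, synaptic vesicle and transporter genes had 4919 and 4423 bp, against 4302 and 4643 bp at calcium and sodium channels. The 5 liver transcription factors had median summed widths of 9263 and 8751 bp.

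**Figure D5:**
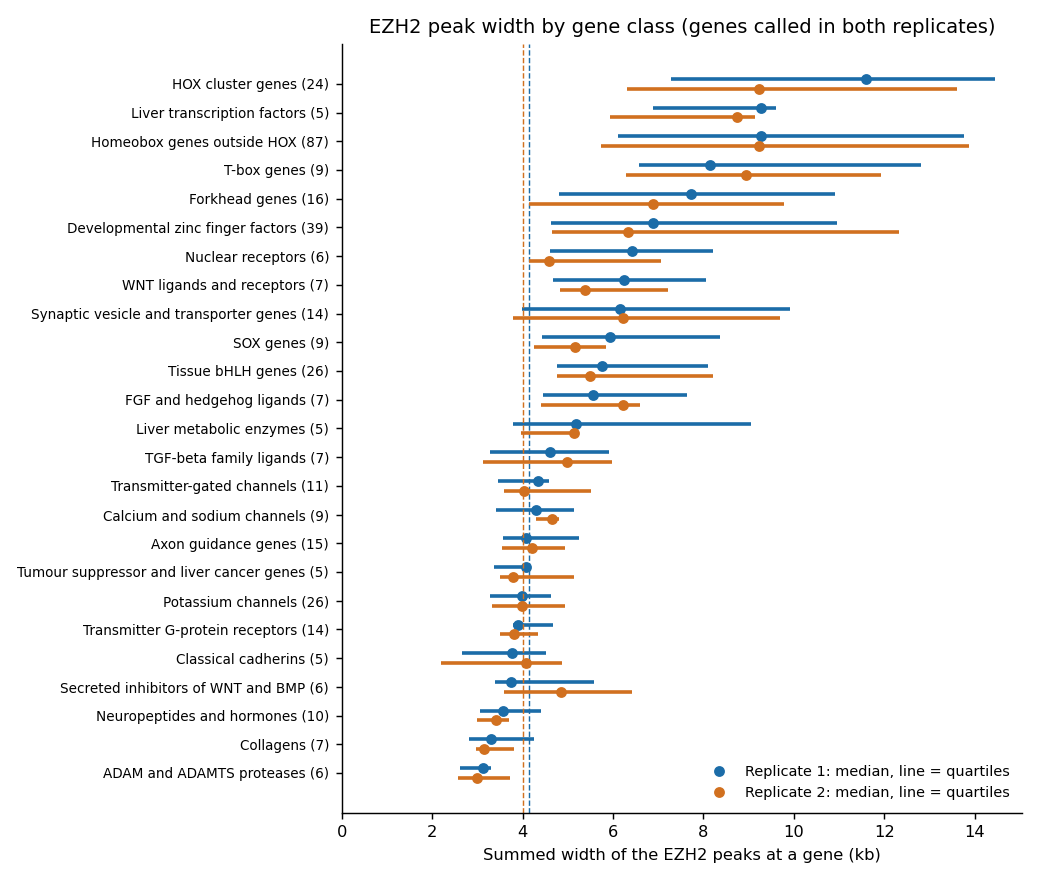
Summed width of EZH2 peaks at a gene (kb) for classes with at least 5 genes called in both replicates: dots are medians, lines run between the quartiles, numbers in brackets count the genes, and dashed lines are the medians of all 975 genes in each replicate. Developmental factors lie above the dashed lines and collagens and ADAM proteases below them in both replicates.

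Density followed width only in part. Peaks of homeobox genes outside HOX had 151 and 162 tags per kb at the median, against 127 and 136 for all 975 genes. HOX genes had 118 and 130. The 3 protocadherins had 75.6 and 80.4, and transmitter-gated channels 97.0 and 111. The 4 Polycomb genes had 171 and 191.

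Among peaks matched one to one, the 10 widest regions outside HOX, by the narrower of both peaks, were each at a developmental regulator. Regions that 1 list splits into several peaks are not ranked here. HMX2 and HMX3, paired homeobox genes of the inner ear, lay under 20935 and 20425 bp at chr10:123131652-123152586 (replicate 1). SP9 followed at chr2:174325322-174345170, then HAND2, a factor of heart and limb, with 19000 and 18837 bp. PAX2, of kidney and eye, had peaks of 17943 and 19397 bp, SKOR1 19145 and 17722 bp, and LHX2, of forebrain and liver stellate cells, 18824 and 17268 bp. The remainder were OLIG2, GATA3 (16532 and 16842 bp), NKX2-3 (16411 and 16124 bp) and ZIC2 (16180 and 15818 bp). Edges of these regions moved little between replicates: the left edges of the SP9 peaks were at 174325322 and 174325449, and the right edges at 174345170 and 174345286.

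About gene starts the peaks were lopsided. In 368 one-to-one pairs that held the start of exactly 1 coding gene with 1 listed start, the peak reached a median of 1535 and 1476 bp upstream and 2305 and 2331 bp into the gene. It reached further downstream than upstream in 76.4% and 77.4% of them. The summit lay downstream of the start in 81.0% and 81.8%, at a median of 383 and 406 bp. At GATA6, which is not among these pairs, the summits lay at -3955 and -3993 bp from the listed start, that is upstream.

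Agreement between replicates also varied by class. Of genes with a peak in at least 1 list, 975 of 1515 (64.4%, 61.9 to 66.7) had one in both. The share was 82.8% (192 of 232) for factors outside HOX, 71.2% (47 of 66) for signalling genes, 66.9% (87 of 130) for neuronal genes, 57.1% (24 of 42) for adhesion and matrix genes and 59.5% for genes of no class. Synaptic vesicle genes reached 14 of 15, developmental zinc finger factors 39 of 43 and T-box genes 9 of 10. Receptors coupled to G proteins had 14 of 27 and neuropeptides 10 of 18. Potassium channels had 0 genes in replicate 1 alone and 10 in replicate 2 alone. Over all coding genes replicate 2 alone also held more, 332 against 208 in replicate 1 alone. At genes called in both lists the widths were within 1.5 times of each other in 903 of 975 (92.6%), and Spearman's rho across these genes was 0.897. OSR2 (1870 and 13527 bp) and FAXC (3021 and 532 bp) were the only 2 that differed by more than 4 times.

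Some of the widest and densest regions appear in 1 list only. There were 219 and 303 peaks of 2 kb and over with no overlapping peak in the other list, at 97.2 and 109 tags per kb, and 71.2% and 69.97% of them were at gene ends. Only 17.8% and 12.5% lay within 5 kb of a peak of the other list. The widest peak of replicate 1, 31723 bp with 6220 tags over FOXF1 (a factor of gut and lung mesenchyme), lies 41.4 kb from the nearest replicate 2 peak. EN1, of the midbrain, had 21661 bp (with a replicate 2 peak 2.84 kb away), SIM2 20406 bp, GBX2 16756 bp and MNX1, of motor neurons, 15552 bp, all in replicate 1 alone. The widest peak of replicate 2, 29811 bp with 6849 tags over UNCX, lies 267 kb from the nearest replicate 1 peak. EMX2, of cortex and kidney, had 24312 bp, PAX6, of eye and pancreas, 19356 bp, TBX1 18144 bp and LHX3 16498 bp in replicate 2 alone. H3K27me3 peaks of replicate 2 overlapped 69.9% and 71.6% of the wide unmatched EZH2 peaks, against 76.7% and 76.9% of the wide matched ones. The H3K27me3 list of replicate 1 overlapped 4.57% and 5.94% of the unmatched and 3.85% and 4.03% of the matched ones. Neither list held an H3K27me3 peak at the EN1, SIM2, TBX1 or LHX3 peaks named. A gene with a peak in 1 list is not shown to lack EZH2 in the other culture, since only called peaks are listed, and the cause of the missing entries was not tested.

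The 5 highest-scoring unmatched peaks of each list were also at developmental factors or beside them. In replicate 1 they were MNX1 (179 tags per kb) with a second peak 9579 bp wide beside it, EN1 (160), OLIG3 (166) and HOXA10 (159). In replicate 2 they were a 6726 bp peak at chr11:31821516-31828241 beside the PAX6 peak, FOXF2 (274), UNCX (230), HOXD8 (130) and EVX1 (152). Factors outside HOX that were called in 1 list only had median widths of 6504 bp (18 genes, replicate 1) and 6697 bp (22 genes, replicate 2). For all coding genes the medians were 2734 bp (208 genes) and 2637 bp (332 genes).

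Non-coding genes were also covered, mostly through a coding neighbour. Of 18177 lncRNA genes, 412 (2.27%) had a peak at an end in both lists. At 307 of them the peak also lay at a coding gene end. The other 105 had median widths of 3608 and 3566 bp. They included LINC00682, with 5903 and 5809 bp. PRDM8-AS1, with 2715 and 3441 bp, is counted from peaks that cover a listed start of the coding gene PRDM8. RUNX3-AS1 and TENM3-AS1 likewise share peaks over listed starts of RUNX3 and TENM3. The 105 genes are thus free of a shared coding gene end, but not all are free of a coding start.

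Hairpins of 25 miRNAs of 1558 (1.60%) lay within 2 kb of a peak in both lists. Several are regulators of cell identity, chosen here as known miRNAs after their values were seen, and their RefSeq mature sequences are shown with the seed (bases 2 to 8), which pairs with target mRNAs, in capitals. MIR9-1, of neural progenitors (chr1:156420341-156420429), had 6024 and 5123 bp of peak, and MIR129-2, of neurons (chr11:43581394-43581483), 11406 and 10228 bp. MIR1-1, of heart and muscle (chr20:62554306-62554376), had 7497 and 8995 bp, and MIR203A, of skin (chr14:104117405-104117514), 4288 and 3472 bp. MIR148A, which is abundant in liver (chr7:25949919-25949986), had 2975 and 2850 bp.
miR-9-5p: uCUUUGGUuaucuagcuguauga
miR-129-5p: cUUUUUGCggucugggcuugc
miR-1-3p: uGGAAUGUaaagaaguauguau
miR-203a-3p: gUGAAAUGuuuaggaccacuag
miR-148a-3p: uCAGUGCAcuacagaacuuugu
These 5 seeds differ from each other. MIR10B, within the HOXD cluster, had 7148 and 7203 bp.

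Further hairpins had a peak in 1 list only, 6 in replicate 1 and 9 in replicate 2. MIR9-2 (chr5:88666853-88666939), which gives the same mature miR-9-5p as MIR9-1, had a peak of 1816 bp in replicate 1. MIR132 and MIR212, neighbours on chromosome 17 that neurons use, lay under a 3486 bp peak of replicate 2. Their mature forms share a seed.
miR-132-3p: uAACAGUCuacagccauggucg
miR-212-3p: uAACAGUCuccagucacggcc
MIR375, of pancreatic islets, had a peak of 3771 bp in replicate 1.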

How the data were processed

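ChIP-seq of EZH2 in 2 THLE-2 libraries, each with its input, was analysed from the peak list the authors deposited for each library. The build GRCh38 and the tools MACS 1.4.2, Bowtie2 and cutadapt are listed, without their settings, per the submitters' processing notes. MACS called the peaks with a cutoff of 1e-05 and kept 1 tag per position, per the file headers. The deposited columns hold, for every peak, its tag count, a score (10 times the negative log10 of p), a fold enrichment over local background, which is a ratio, and a false discovery rate in percent, which was under 100 for 34 and 58 peaks only and was not used. Fold enrichment and score are the authors' values and served only to rank or filter peaks within a list. Peaks on other sequences (31 and 53) were left out. Peaks were joined to RefSeq GRCh38.p14 genes with Python 3.11.15 and pandas 2.3.3; listed starts and strands covered 15812 of 19974 coding genes. The overlap search was tested on simulated data. Shares have Wilson 95% intervals; tags carry no molecular identifiers and are not independent molecules.

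Members and gene classes were chosen with earlier results of these data known. Named genes are, per class, up to 4 genes called in both lists with the best of the poorer fold-enrichment ranks. All called genes of classes with 5 or fewer were added, as were all Polycomb genes called. The set also holds the 10 widest regions outside HOX matched one to one and the 5 highest-scoring unmatched peaks of each list. Some of these are not reported here, and other genes named were chosen after their values were seen. With 2 libraries of 1 group no test was run. Alternatives were the gene window, the start only, the gene body, stricter or equal-sized lists, the overlap rule and single replicates. Depth limits what is listed: a gene without a peak is one where none was called. Reads were not used here.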

Additional observations from a re-analysis of the deposited data

How the results depend on the processing

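The number of genes with EZH2 in both replicates, 975, stayed within 1.5 times under every alternative run, from 685 (gene start only, over genes with a listed start) to 1307 (without replicate 1) and 1183 (without replicate 2). With a score of at least 100 it was 738, all among the 975. The overlap between lists depended on the peaks compared: with a score of at least 100 in both lists it was 80.0% of replicate 1 and 68.5% of replicate 2 peaks, with equal numbers of top peaks 60.1% and 61.3%, and with an overlap of at least 50% of each peak 34.9% of replicate 2 peaks. Median widths over all genes called in a list, 3885 and 3644 bp, became 4243 and 4005 bp with a score of at least 100 and 4148 and 4005 bp at genes called in both replicates. Homeobox genes outside HOX ranged from 54.0% to 64.0% over the alternatives and plasma proteins stayed at 0. Of 41 classes, 5 left the interval of their share with the stricter score (Notch genes and claudins at 0, axon guidance genes at 11.1%, ADAM proteases at 2.27%, tumour suppressor and liver cancer genes at 3.33%), 3 without replicate 1 (HOX genes at 79.5%, potassium channels at 37.9% and transmitter G-protein receptors at 31.4%), 2 with the gene start only (Notch genes at 0, Polycomb genes at 2.70%) and 1 with the gene body (protocadherins at 13.8%). No paired analysis was possible because no test between groups was run. Intervals cover counting error, not the spread between cultures.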

Other observations

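Several genes outside all classes ranked high in both lists. LGR6, a receptor of epithelial stem cells, had short peaks of 1037 and 900 bp. Others were wide: MECOM, a zinc finger factor of blood stem cells, had 12361 and 11633 bp. MAFA, an insulin gene regulator, had 13318 and 7344 bp. DMRT1, the testis factor, had a summed 13038 and 12528 bp, most of it in a peak over the start of its neighbour DMRT3. SHISAL1 had 5489 and 5659 bp, RNF220 5233 and 5149 bp, and LINGO1, a neuronal receptor, 6232 and 4854 bp. GOLGA8A belongs to a family of near-identical copies on chromosome 15, and the reads under its peaks (1458 and 752 bp) cannot be assigned to this copy with certainty.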
